A study of Mus musculus with 18 samples.

Results

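The replication-dependent histone genes of C3H/10T1/2 cells are described here: 64 genes among the 24100 gene rows of each count table. They were chosen by a rule on names, with earlier results of these data known. A gene was taken when its Entrez identifier maps to a symbol starting with Hist1h, Hist2h, Hist3h or Hist4h, or to the newer name of such a gene. They comprise 6 H1, 17 H2A, 18 H2B, 10 H3 and 13 H4 genes, of which 62 are annotated as protein-coding and 2, *H2bu1-ps* and *H2af-ps2*, as transcribed pseudogenes. C3H/10T1/2 is a mouse mesenchymal progenitor cell line, and RNA was sequenced from 18 libraries, 9 of polyA-selected RNA and 9 of RNA depleted of ribosomal RNA (rRNA-depleted). Each kind holds 3 libraries of the WT line, which received the empty Cas9 vector, and 3 of each *Atrx* KO clone, sg5 (clone G7) and sg6 (clone B10), which were made with different sgRNAs against *Atrx*. ATRX is a chromatin remodeller that helps to deposit the replication-independent histone H3.3. Each line is a single clone or culture, no label says that its 3 libraries come from separate cultures, and p-values therefore measure only the spread between these libraries.

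Replication-dependent histone genes supply the core histones H2A, H2B, H3 and H4 and the linker histone H1 that package new DNA in S phase, and their RNA rises and falls with DNA synthesis. Their mRNAs end at a conserved 3′ stem-loop and carry no polyA tail, unlike other mRNAs. The stem-loop is bound by SLBP and cut downstream by the U7 snRNP with CPSF3, and some of these genes can also give a longer, polyadenylated RNA from a signal further downstream. Selection of polyA RNA and depletion of rRNA thus take up different forms of their RNA.

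The stem-loop was searched in the GENCODE M21 transcripts of GRCm38 (the build that UCSC names mm10) as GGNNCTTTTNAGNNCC, 16 bases on the transcript strand. It was found in 124 of 141767 transcripts (0.0875%) and in annotated transcripts of 40 of the 64 genes: 4 of 6 H1, 9 of 17 H2A, 10 of 18 H2B, 6 of 10 H3 and 11 of 13 H4 genes. The 6 forms found are shown because they are the 3′ end by which these RNAs differ from other mRNAs, with the 4-base loop in capitals.
Form 1, in 22 genes: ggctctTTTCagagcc
Form 2, in 7 genes: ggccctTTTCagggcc
Form 3, in 6 genes: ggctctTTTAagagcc
Form 4, in 2 genes: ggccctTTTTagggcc
Form 5, in 2 genes: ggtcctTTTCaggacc
Form 6, in 1 gene: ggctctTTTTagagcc
Forms 2, 4 and 5 were found in H4 genes alone, 11 in all, and the other forms in H1, H2A, H2B and H3 genes alone. In 20 of the 40 genes an annotated transcript ran over 100 nt past the stem-loop, up to 4884 nt in *H1f3*, and in 20 it ended within 100 nt. For the other 24 genes the letters were not in the annotated transcript. Some of these transcripts are short, at 411 nt in *H3c11*, 381 nt in *H2bc18* and 312 nt in *H4c12*. A stem-loop past an annotated end could not be found by this search, so a gene without a match is not shown to lack one.

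Levels within a kind of library are CPM, counts scaled to library totals after TMM normalization. A clone was compared with WT by edgeR's quasi-likelihood test over the whole table, with Benjamini-Hochberg adjustment, and a gene was called changed past a log2 fold change of 1 with an adjusted p below 0.05. Totals ran from 27544833 to 235346363 counts in the polyA libraries and from 20135336 to 33187136 in the rRNA-depleted libraries. *Atrx* RNA was lower in both clones in both kinds, with log2 fold changes from −1.39 to −1.20. The summed level of 12 mesenchymal progenitor markers was 4699 CPM or more in every library, and that of 4 haematopoietic markers at most 1.30 CPM. Marker genes moved with the lines. The sum of 4 endothelial markers was 1.29 to 1.99 CPM in WT, 9.43 to 14.2 CPM in sg5 and 8.44 to 11.04 CPM in sg6 polyA libraries, mostly *Tek* (log2 fold changes of 3.54 and 3.24), while *Pecam1* was called lower (−1.37 and −1.22). The sum of 4 epithelial markers was 2.76 to 5.03 CPM in WT and 0.340 to 1.71 CPM in the clones in polyA libraries, with *Cdh1* called lower in both clones in polyA (−1.64 and −3.23) and rRNA-depleted libraries (−3.82 and −3.18), and *Epcam* at 0 counts in 4 of 9 polyA and 8 of 9 rRNA-depleted libraries. Of the mesenchymal markers, *Eng* was called higher in both clones in both kinds (1.32 to 2.17) and *Thy1* moved in opposite directions in polyA libraries (−1.73 in sg5 and 7.03 in sg6). Their part in the histone values was not tested.

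The 64 genes together took 4.20%, 4.22% and 3.32% of gene counts in the 3 WT rRNA-depleted libraries but 0.00795%, 0.00856% and 0.0117% in the WT polyA libraries. The median gene of the 64 stood 553 times higher in the rRNA-depleted than in the polyA libraries of WT, a log2 ratio of 9.11 on CPM over gene counts plus 0.5. It was 8.48 in sg5 and 8.47 in sg6, against medians of −0.06, −0.03 and −0.03 over the 20963 genes with a count. In WT the ratio was above 0 in 63 of the 64 genes. The kinds differed in selection, quantification and multi-mapping rules as well as in RNA form, and by the study's methods in facility (the labels name 1 facility for all libraries), and these cannot be told apart, so the ratio has no test. Its size also depends on the 0.5 added, since most of these genes lie below that level in polyA libraries.

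**Figure D1:**
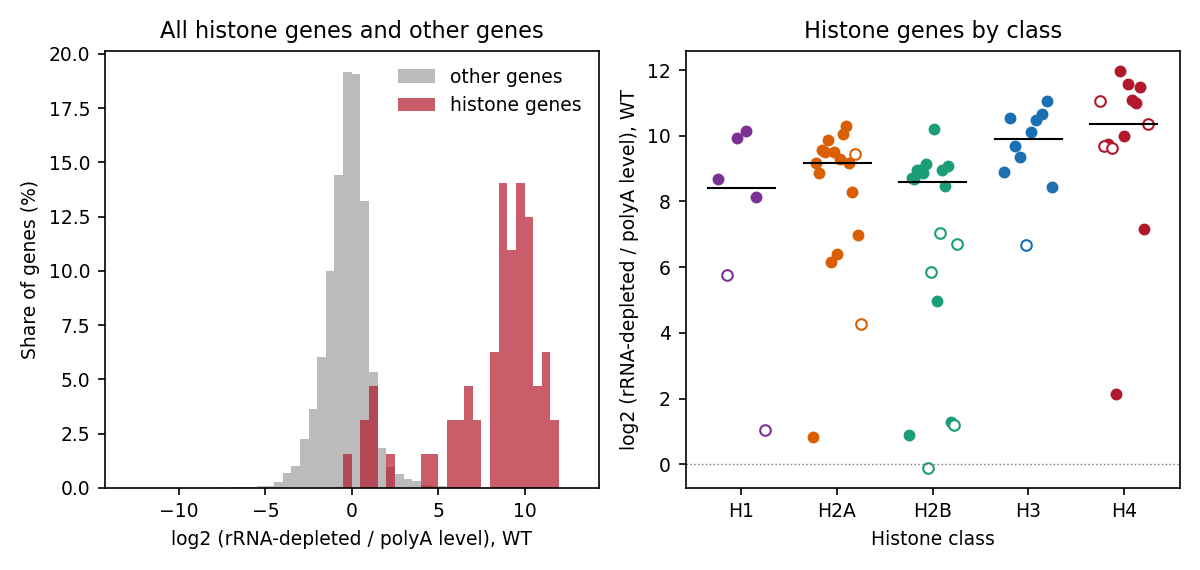
Log2 ratio of rRNA-depleted to polyA level in WT, as the share of genes in bins of 0.5 for the 64 histone genes and for the 12385 other genes with a mean of at least 1 CPM (left; 2 of these lie outside the bins), and for each histone gene by class (right; bars are medians, open circles genes with a polyA signal in the last 50 nt of an annotated transcript). Most histone genes lie between 8 and 12, and H2B holds the gene below 0.

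By class, the median log2 ratio in WT was 8.40 for H1, 9.17 for H2A, 8.58 for H2B, 9.90 for H3 and 10.35 for H4. H4 genes thus had the largest median excess in rRNA-depleted libraries, with single genes spread from 2.14 to 11.98. Genes with an AATAAA signal in the last 50 nt of an annotated transcript, 14 of the 64, had a median of 6.69, against 9.16 for the other 50. Whether the annotated transcript ended near the stem-loop separated the genes less: the median was 9.23 for the 20 genes ending within 100 nt of it, 9.30 for the 20 running further and 8.92 for the 24 without a match.

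A few genes made up most histone RNA of the polyA libraries. Those with the highest mean were *H2bc4*, *H1f2*, *H3c14*, *H4bc24* (older name Hist1h2br, an H2B gene) and *H2bc6*. *H2bc4*, a core H2B gene, read 15.1, 15.2 and 23.9 CPM in WT polyA libraries and 625, 594 and 406 CPM in WT rRNA-depleted libraries. *H1f2*, which encodes the linker histone H1.2, read 20.7, 20.9 and 25 CPM and 1367, 1116 and 929 CPM. *H3c14*, an H3 gene of chromosome 3, read 10.1, 8.40 and 13.1 CPM and 1184, 1134 and 769 CPM. In all 3 genes every rRNA-depleted library was above every polyA library. Transcripts of *H1f2* and *H3c14* are annotated to run 840 and 1162 nt past the stem-loop and to end at a polyA signal. For *H3c14*, all 31-base words occur in other transcripts. The gene sharing the most of them is *Gm20634*, which overlaps it on the same strand.

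The lowest ratios among genes with a mean of at least 1 CPM in both kinds, averaged over the lines, were those of *H2bc21*, *H4c17* and *H2aw*, at WT log2 ratios of −0.11, 2.14 and 4.26. *H2bc21*, an H2B gene whose annotated transcript ends at a polyA signal and holds no stem-loop match, read 1.85, 3.38 and 5.52 CPM in WT polyA and 3.20, 2.14 and 3.62 CPM in WT rRNA-depleted libraries, overlapping ranges. Its words are 2.82% shared, so the value is little affected by near-identical copies. *H2aw*, an H2A gene of chromosome 11, read 3.84, 3.22 and 5.43 CPM and 98.3, 78.3 and 67.7 CPM, still higher in every rRNA-depleted library. *H4c17*, an H4 gene, read 0.489, 0.320 and 0.645 CPM and 4.86, 3.43 and 2.17 CPM. The highest ratios by the same rule were those of *H1f3*, *H2bc18* and *H2bc8*, with WT log2 ratios of 9.93, 9.14 and 8.48. *H1f3* is the gene with the longest annotated stretch past its stem-loop, and its polyA level was still 1.01, 0.755 and 0.778 CPM against 1312, 1283 and 946 CPM.

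The H4 genes *H4c17* and *H4c18* have values that could depend on how shared reads were assigned, which was not tested. Of their 31-base words 91.7% and 87.5% occur in other transcripts, and each gene is the one that shares most words with the other. Both end in form 2 of the stem-loop. *H4c18* was listed at 0 in all 9 polyA libraries, yet held 44599, 52641 and 48338 counts in the WT rRNA-depleted libraries, the highest level per length among the genes compared below. *H4c17* held 14, 28 and 29 counts in WT polyA and 111, 93 and 78 counts in WT rRNA-depleted libraries. Reads from shared words could be assigned to either gene, and their values are uncertain one by one. Of the 64 genes, 37 share over 50% of their words with other transcripts and 6 share under 5%. In addition 20 overlap a gene on the opposite strand, and the strand setting of the counting is not stated.

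Levels per length were compared among the 58 genes whose RefSeq span is under 1000 nt. In WT rRNA-depleted libraries the 5 highest were H4 genes: *H4c18* at 4302 ± 855 CPM per kb (SD, n = 3), *H4c3* at 3919 ± 646, *H4c4* at 3547 ± 723, *H4c8* at 3541 ± 682 and *H4c12* at 2792 ± 518. Neighbours among the first 4 differed by less than their SD, and the WT libraries of *H4c8* (2759.6 to 4014 CPM per kb) and *H4c12* (2195 to 3129 CPM per kb) overlapped. The highest H1 gene was *H1f2* at 1569 ± 303 CPM per kb, in 11th place. At the bottom were *H1f6*, *H2ac1* and *H2bc1*, which encode testis histones, at 1.08 ± 0.377, 0.746 ± 0.155 and 0.873 ± 0.481 CPM per kb. *H2bc1* was at 0 counts in all polyA libraries, below 3 counts in each. These genes were named after their levels were seen, as were *H4c3*, *H4c4* and *H4c12*.

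In the rRNA-depleted libraries, which hold nearly all histone RNA, levels in both clones lay below WT on average, and the difference was within the spread between libraries. The summed level of the 64 genes was 38948, 36622 and 25879 CPM in WT, 16246, 28923 and 29355 CPM in sg5 and 20139.8, 33614 and 24762 CPM in sg6. The lowest WT library lay below the 2 highest sg5 libraries and the highest sg6 library, so the lines overlapped. Of the 64 genes, 62 passed the filter on low counts, and their median log2 fold change was −0.47 in sg5, with 58 below 0, and −0.37 in sg6, with 60 below 0. Over all 13303 gene rows tested the medians were 0.08 and 0.04. The call was reached for 0 genes upward and 1 downward in sg5, where 3.04% and 4.31% of gene rows tested were called (1.19% and 1.86% with element loci included), and for 0 genes in either direction in sg6, where 2.16% and 3.59% were (0.842% and 1.61%). At an unadjusted p below 0.05 edgeR counted 14 genes in sg5 and 8 in sg6, and DESeq2 called 0 in sg6 as well. The share of all genes at an unadjusted p below 0.05 is not given, here or below, so nothing is read from such counts. Every sg5 library lay below every WT library in 5 of the 62 genes, and every sg6 library in 2, against 13.9% and 13.4% of gene rows tested. These values depend on single libraries: on plain ratios of mean levels the sg5 median moved from −0.46 to −0.19 without sg5 replicate 1, and the sg6 median from −0.37 to −0.19 without sg6 replicate 1. In bulk RNA, fewer cells in S phase and less histone RNA per cell cannot be told apart.

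**Figure D2:**
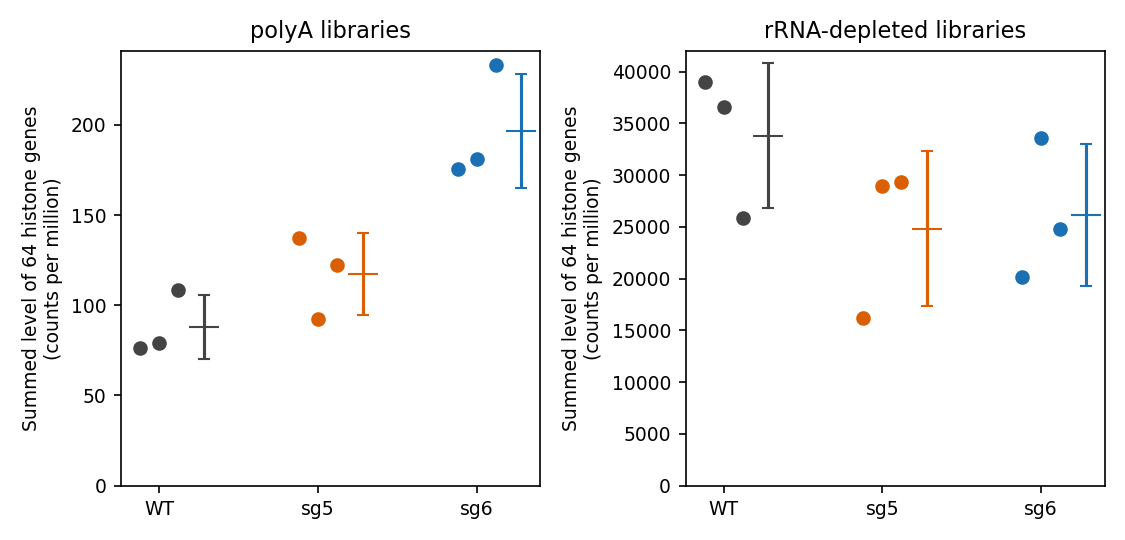
Summed level of the 64 histone genes (CPM) in each polyA library (left) and rRNA-depleted library (right), with the mean and SD of each line beside the points (n = 3). All sg6 polyA libraries lie above all WT polyA libraries, and the lines overlap in the rRNA-depleted libraries.

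In the rRNA-depleted libraries the most abundant genes of each class were not called in either clone. For *H4c8*, the rRNA-depleted level was 1746, 1674 and 1200.4 CPM in WT, 802, 1355 and 1379.6 CPM in sg5 and 1001, 1508 and 1178 CPM in sg6, with overlapping lines. For *H2bc18* the means were 1268 ± 268, 933 ± 339.6 and 868 ± 366 CPM (SD, n = 3) in WT, sg5 and sg6. For *H3c7* they were 1042 ± 197, 751 ± 296 and 832 ± 192 CPM. The H2A genes *H2ac4* and *H2ac7* had log2 fold changes of −0.64 and −0.49 in sg5 and −0.46 and −0.37 in sg6, with adjusted p from 0.323 to 0.679. *H1f2* stood closest to WT among the H1 genes, at −0.04 in sg5 and −0.08 in sg6 (adjusted p = 0.936 and 0.898).

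The single call in the rRNA-depleted libraries was *H1f1*, named after its values were seen, which encodes the linker histone H1.1 and lies on the plus strand of chromosome 13 from 23763668 to 23764412. Its level was 274, 211 and 165 CPM in WT, 4.46, 11.4 and 10.2 CPM in sg5 and 80.7, 171 and 118 CPM in sg6. All sg5 libraries lay far below all others, while 1 sg6 library lay inside the WT range. In sg5 it was 25.1-fold lower than in WT (log2 fold change −4.65 ± 0.37 (SE), adjusted p = 9.51e-06) and 14.3-fold lower than in sg6 (adjusted p = 0.000113). In sg6 the difference from WT was not called (log2 fold change −0.81 ± 0.32 (SE), adjusted p = 0.269). The sg5 calls held in all 9 fits that each left out 1 library. Its share of H1 counts was 6.16%, 5.30% and 5.44% in WT, 0.178%, 0.345% and 0.309% in sg5 and 2.65%, 4.62% and 4.08% in sg6. Its polyA counts were 0 to 7 in every library, and it was not tested there. *H1f1* shares 0.281% of its words with other transcripts. The 8 other histone genes within 24861 nt of its start had sg5 log2 fold changes between −0.76 and −0.04 in the same libraries, none called (smallest adjusted p = 0.230).

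**Figure D3:**
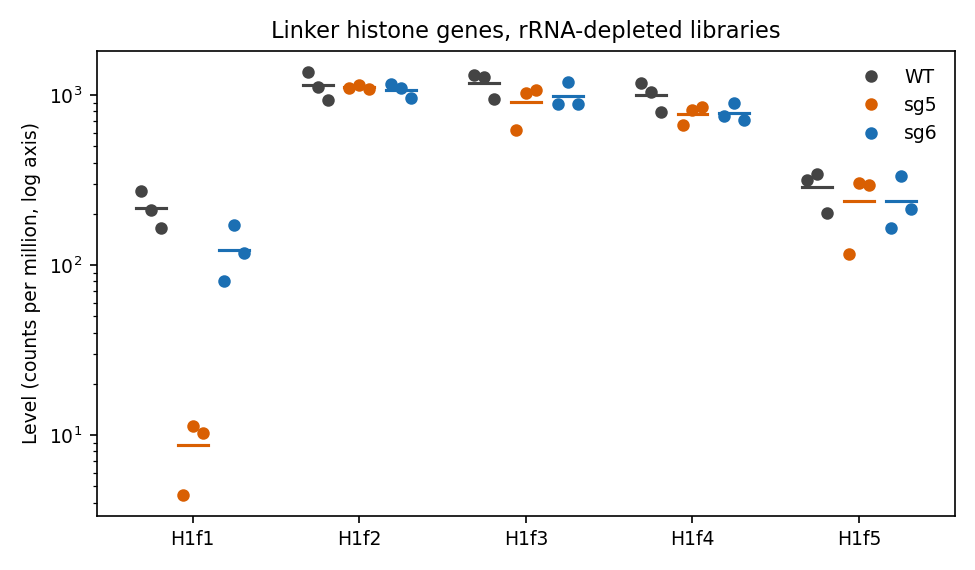
Level of 5 linker histone genes in the 9 rRNA-depleted libraries (CPM, log axis), with a short bar at the mean of each line (n = 3). H1f1 in sg5 lies between 4.46 and 11.4 CPM, and the sg5 libraries of the other genes lie near those of WT and sg6.

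Promoters of *H1f1* and of *H1f2* are shown because the first fell in sg5 while the second, another H1 gene within 24861 nt, stood closest to WT. The windows run from 250 bases before to 50 bases after the start, from RefSeq on GRCm38.p6, plus strand, with the matches to 4 motifs in capitals, searched on both strands: the CCAAT box (CCAAT), the TATA box (TATAAA), the octamer (ATTTGCAT) and the H1 box (AAACACA).
H1f1, chr13:23763418-23763717: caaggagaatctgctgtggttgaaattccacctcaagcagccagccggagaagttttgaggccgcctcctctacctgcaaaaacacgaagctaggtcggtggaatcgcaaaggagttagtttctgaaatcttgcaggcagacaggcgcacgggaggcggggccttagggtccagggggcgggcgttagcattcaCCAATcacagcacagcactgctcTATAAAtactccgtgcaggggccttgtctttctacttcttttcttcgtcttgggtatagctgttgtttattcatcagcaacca
H1f2, chr13:23738557-23738856: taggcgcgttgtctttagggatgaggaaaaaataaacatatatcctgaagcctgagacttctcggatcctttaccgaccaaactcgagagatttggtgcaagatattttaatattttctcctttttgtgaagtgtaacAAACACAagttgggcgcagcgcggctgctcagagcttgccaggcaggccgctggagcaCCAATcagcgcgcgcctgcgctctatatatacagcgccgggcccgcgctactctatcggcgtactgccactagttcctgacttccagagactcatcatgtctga
Both windows hold CCAAT near the start, which was found in 84.2% of the 57 histone promoters given and in 41.1% of all 27025 promoters of this length. TATAAA was found in 57.9% and 15.7%, and in the *H1f1* window but not in that of *H1f2*. AAACACA, the letters of the H1 box, was found in 5 of 6 H1 promoters, all but that of *H1f1*. It was also found in 2 of 16 H2A and 2 of 15 H2B promoters, in 0 of the H3 and H4 promoters and in 8.22% of all promoters. The octamer ATTTGCAT was found in 7 of 16 H2A and 7 of 15 H2B promoters, in 0 of the H1, H3 and H4 promoters and in 1.97% of all. These are matches of letters in the reference, not sites of a factor, and their part in the sg5 level of *H1f1* was not tested.

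In the polyA libraries the histone genes were higher in sg6 than in WT, and less so in sg5. The summed level was 76.5, 79.2 and 109 CPM in WT, 137, 92.4 and 122 CPM in sg5 and 176, 181 and 233 CPM in sg6. Every sg6 library was above every WT and sg5 library, while sg5 and WT overlapped. Of the 64 genes, 38 passed the filter on low counts. In sg6 versus WT 17 were called higher and 0 lower, where 3.64% of all genes tested were called higher and 7.54% lower, with a median log2 fold change of 0.997 against −0.01 over all genes. In sg5 versus WT 5 were called higher and 1 lower, where 3.18% and 6.96% of all genes were, with a median of 0.24. On plain ratios of mean levels with 0.5 CPM added the medians were smaller, 0.43 in sg6 and 0.14 in sg5. Leaving out 1 library gave 0.40 to 0.51 in sg6 and 0.07 to 0.19 in sg5. The size of the median thus depends on the measure for genes this low. In sg6 every library lay above every WT library in 21 of the 38 genes (55.3%), and in sg5 in 9 (23.7%), against 22.4% and 21.2% of all genes tested. Without WT replicate 2 the sg6 count was 10. The sg5 count was 1 without WT replicate 2 or sg5 replicate 1, 2 without sg5 replicate 3 and 3 without sg6 replicate 2. DESeq2 called 17 higher in sg6 and 4 in sg5. Both comparisons share the WT libraries. At these levels the genes rest on few counts, and some passed the filter only through the line where they were high. Of the 38 genes, 26 reached the filter's cutoff of 0.139 CPM in all 3 WT libraries, as did 11 of the 17 called in sg6, and the other 6 called genes did not. Nothing is read from the count of those 6. The medians and the counts of genes without overlap include all 12 genes that did not reach the cutoff in all WT libraries. Of these, 4 needed an sg6 library to pass the filter. The medians and counts over the 38 genes are therefore descriptions and were not recomputed without these genes. The sg5 polyA libraries were also the deepest, at 161036799 to 235346363 counts against 27544833 to 80772108 in WT and 58918732 to 71896907 in sg6, and the part of depth in the calls was not tested. These sg5 totals lie above the number of read pairs per sample that the study's methods give, and whether runs were merged is not given in the sources used here. The endothelial and epithelial marker sums given above moved in these same libraries.

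**Figure D4:**
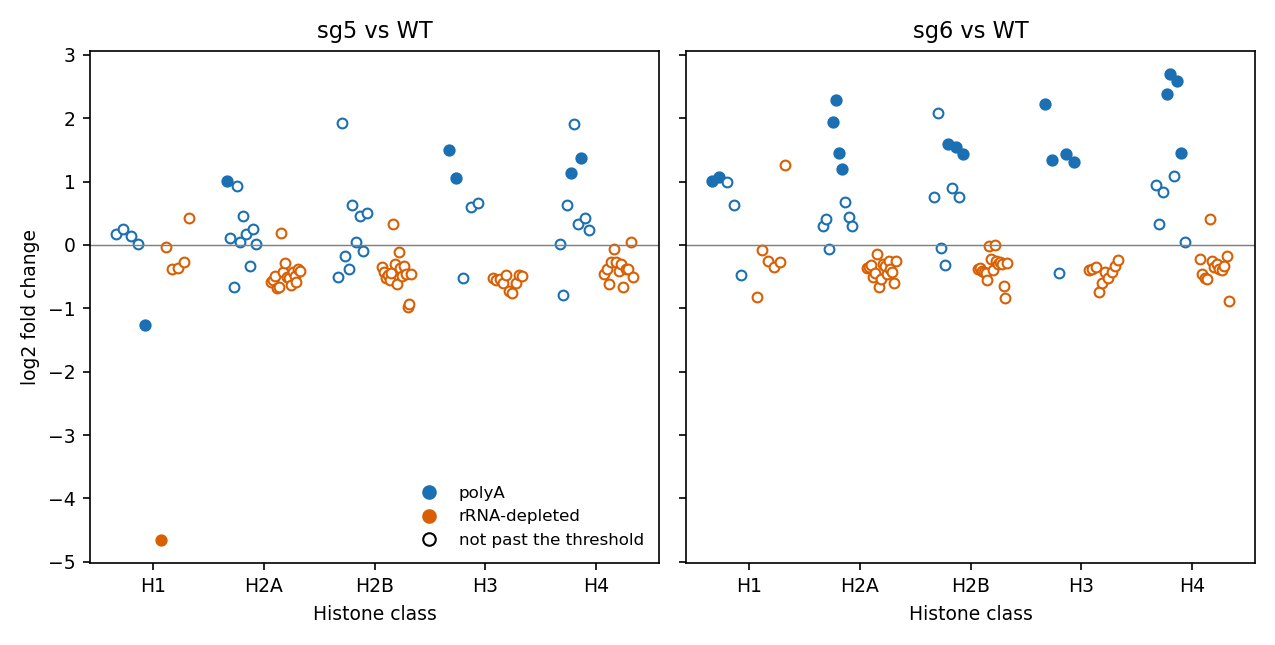
Log2 fold change of each tested histone gene by class in sg5 versus WT (left) and sg6 versus WT (right), in polyA (blue) and rRNA-depleted libraries (orange), with filled points for genes past the threshold. In sg6 most polyA points lie above 0 and most rRNA-depleted points below it, and H1f1 in sg5 lies at −4.65.

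The sg6 calls in polyA libraries came from all classes: 2 of 5 H1, 4 of 10 H2A, 3 of 9 H2B, 4 of 5 H3 and 4 of 9 H4 genes tested. These counts include the 6 genes that did not reach the filter's cutoff in all WT libraries. Among those are *H3c11* and *H2ac4*, which reached it in 1 WT library each. Nothing is read from the spread over classes. *H2bc4* rose from 15.1, 15.2 and 23.9 CPM in WT to 50.3, 46.8 and 66.3 CPM in sg6 (log2 fold change 1.59 ± 0.25 (SE), adjusted p = 0.00139), with no overlap. In sg5 it read 36.4, 21.4 and 26.2 CPM, not called (log2 fold change 0.63 ± 0.24 (SE), adjusted p = 0.0841). *H1f2* read 40.4, 39.8 and 53.8 CPM in sg6 (log2 fold change 1.01 ± 0.18 (SE), adjusted p = 0.00289), close to the fold limit. *H4bc24* rose from 5.34, 7.43 and 7.85 CPM in WT to 14.8, 18.5 and 22.7 CPM in sg6 (log2 fold change 1.43 ± 0.20 (SE), adjusted p = 0.000716). Of its 31-base words 89.5% occur in other transcripts, so this gene is uncertain by itself. *H2bc6* read 2.03, 4.10 and 4.31 CPM in WT and 5.68, 6.15 and 7.81 CPM in sg6 and stayed under the fold limit (log2 fold change 0.89 ± 0.26 (SE), adjusted p = 0.0279). Of the 3 genes with the lowest ratios, *H4c17* was called higher in both clones and the other two were not called: for *H2bc21* the fit gave −0.38 in sg5 and −0.32 in sg6, and for *H2aw* 0.01 and 0.30 (adjusted p from 0.429 to 0.983).

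The following 4 genes were called higher in both clones in polyA libraries: *H3c14*, *H4c8*, *H3c11* and *H4c17*. *H3c14* read 10.1, 8.40 and 13.1 CPM in WT, 29.4, 15 and 21.2 CPM in sg5 and 25.6, 23.6 and 30.1 CPM in sg6. Both clones lay above WT without overlap, at log2 fold changes of 1.06 ± 0.25 (SE, adjusted p = 0.0124) and 1.33 ± 0.25 (adjusted p = 0.00357). *H4c17* shares words with *H4c18* and is uncertain by itself. It read 0.489, 0.320 and 0.645 CPM in WT, 1.17, 0.925 and 1.02 CPM in sg5 and 2.60, 2.35 and 2.42 CPM in sg6, again without overlap (adjusted p = 0.00952 and 0.000183). *H3c11* and *H4c8* rest on few counts and reached the filter's cutoff in only 1 and 2 of the WT libraries, against all 6 libraries of the clones, so their being tested and called is not independent of their level in the clones: *H3c11* held 3, 5 and 6 counts in WT, 42, 42 and 53 in sg5 and 20, 34 and 25 in sg6, and *H4c8* 1, 14 and 7, 76, 61 and 46 and 64, 51 and 35. The log2 fold change of *H3c11* was 1.495 in sg5 and 2.23 in sg6, and that of *H4c8* was 1.37 and 2.59. Of the 31-base words of *H3c11* 93.2% occur in other transcripts, and of those of *H4c8* 50%, so both are uncertain one by one. In the rRNA-depleted libraries the same 4 genes were not called, at −0.48, −0.39, −0.54 and −0.07 in sg5 and −0.61, −0.33, −0.34 and 0.41 in sg6, in the order given. The fifth gene called higher in sg5 was *H2ac10* (1.001, adjusted p = 0.0388), and the gene called lower was the testis H1 gene *H1f6* (−1.27, adjusted p = 0.0408), with 4, 12 and 11 counts in WT and 16, 12 and 10 in the deeper sg5 libraries (0.140, 0.137 and 0.245 CPM against 0.101, 0.0523 and 0.0617 CPM, the filter's cutoff being reached in all WT and no sg5 libraries); both names were chosen after their values were seen. Their calls held in 2 of 9 fits that each left out 1 library, that of *H4c8* in sg5 in 3, and those of *H3c11*, *H3c14* and *H4c17* in sg5 in 6, 7 and 8.

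The polyA change in sg6 is given here by position, with no test between clusters. The genes lie mostly on chromosome 13, 21 between 21715711 and 22043658 and 30 between 23531044 and 23934913, with 8 on chromosome 3 between 96219885 and 96270192, 3 on chromosome 11, 1 on chromosome 6 and 1 elsewhere on chromosome 13. In sg6 versus WT the median log2 fold change was 1.43 over the 11 genes tested in the first chromosome 13 cluster, with 5 called, and 1.08 over the 19 in the second, with 11 called. Over the 5 tested on chromosome 3 it was −0.04, with only *H3c14* called. The calls and medians by cluster, and the values after centring below, were not limited to genes that reached the filter's cutoff in all WT libraries. Nothing is read from the number of calls, and the medians are descriptions. In sg5 the same medians were 0.42, 0.26 and −0.18. The genes of chromosome 13 that are not histone genes had medians of 0.22 in sg6 and −0.07 in sg5 (562 genes), and in rRNA-depleted libraries 0.21 and −0.03 (477 genes). With each fold change centred on the other genes of its chromosome and the adjusted p kept, a setting chosen after seeing the data, 14 genes were called higher in sg6, the median was 0.82 and 35 of 38 lay above 0. In the rRNA-depleted libraries the centred medians were −0.45 in sg5 and −0.56 in sg6. The part of the whole chromosome in these values was not tested further.

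Compared directly, the polyA levels of sg5 lay below those of sg6 in 36 of 38 genes (median log2 fold change −0.82), with 0 called higher and 3 lower, where 1.36% and 1.25% of all genes tested were. On plain ratios of mean levels with 0.5 CPM added the median was −0.33. At an unadjusted p below 0.05 there were 21, given without the share of all genes, so nothing is read from it. Every sg5 library was below every sg6 library in 20 of the 38 genes, against 13.8% of all genes. The 38 genes include 4 that needed an sg6 library to pass the filter, so these counts and medians are descriptions. The genes called were *H2ac4*, *H4c9* and *H4c17*, with log2 fold changes of −2.24, −1.04 and −1.24 (adjusted p = 0.0353, 0.049 and 0.0127); *H4c9* was named after its values were seen. *H2ac4* held only 7, 10 and 16 counts in sg5 and 15, 19 and 20 in the shallower sg6 libraries, and it passed the filter only through sg6, where it was high (cutoff reached in 3 sg6, 0 sg5 and 1 WT libraries), so its call is given as a description. The count was 0 without sg5 replicate 2, 1 without sg5 replicate 3, sg6 replicate 2 or sg6 replicate 3, and 6 without WT replicate 3. In the rRNA-depleted libraries 0 genes were called higher and 1, *H1f1*, lower, where 0.556% and 0.925% of gene rows tested were (0.207% and 0.259% with element loci included), with a median of −0.12. That median was 0.14 without sg5 replicate 1 and 0.11 without sg6 replicate 2, on plain ratios of means, so its direction rests on single libraries. Over the other genes of chromosome 13 it was −0.27, and with the centring on chromosomes the histone median turned to 0.11, with 54 of 62 above 0. The centred polyA median was −0.52, with 32 of 38 below 0.

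Histone RNA in the rRNA-depleted libraries moved with the RNA of DNA replication genes from library to library. The summed level of 40 DNA replication and S phase genes was 4404, 4572 and 3198 CPM in WT, 1784, 3788 and 3401 CPM in sg5 and 2897, 4606 and 2946 CPM in sg6. The library lowest in histone RNA, sg5 replicate 1, was also the lowest here, and the lowest WT library was the same in both sums. The histone sum per unit of this sum was 8.84, 8.01 and 8.09 in WT, 9.11, 7.63 and 8.63 in sg5 and 6.95, 7.30 and 8.41 in sg6, a narrower range than that of either sum. Of the 40 genes, edgeR called 0 in either clone in either kind. In rRNA-depleted libraries of sg5 and sg6, 38 and 37 lay below 0, with medians of −0.49 and −0.22. An unadjusted p below 0.05 was reached by 13 and 1 in rRNA-depleted and by 1 and 2 in polyA libraries of sg5 and sg6. These counts have no share of all genes beside them, and nothing is read from them. DESeq2 called 1, *Cdc6*, in sg5 rRNA-depleted libraries. In polyA libraries the relation was not seen. There the replication genes summed to 3872, 2957 and 1542 CPM in WT, 2627, 3755 and 2846 CPM in sg5 and 3023, 2472 and 1669 CPM in sg6, and within each line the library lowest in this sum was the highest in histone RNA. Their polyA median was 0.10 in sg5 and −0.27 in sg6, where 36 of 40 lay below 0 beside the histone median of 0.997. The part of cell cycle composition in the histone values was not tested.

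**Figure D5:**
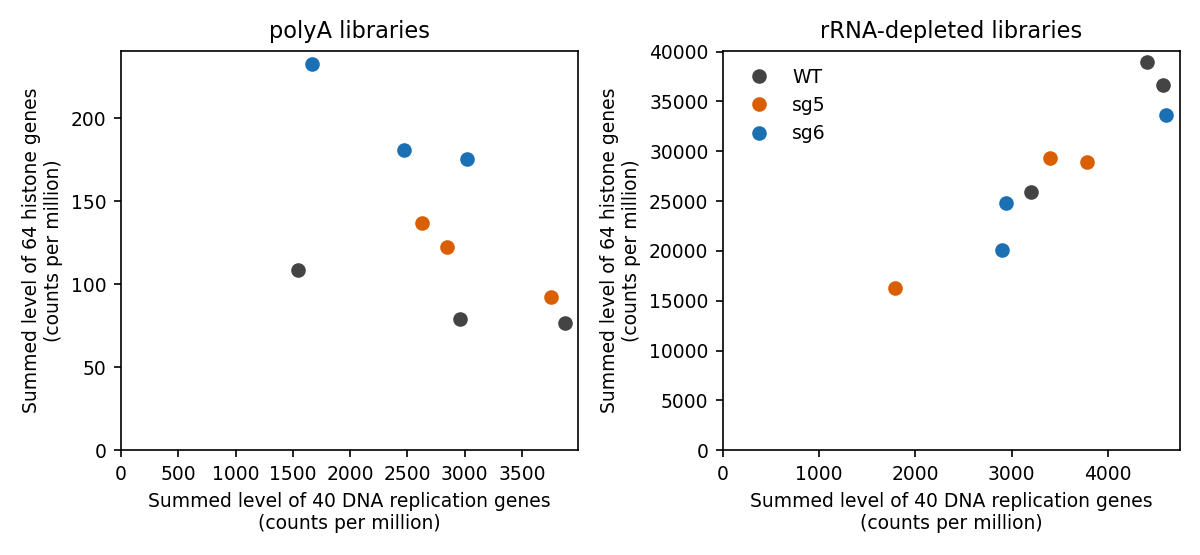
Summed level of the 64 histone genes against that of 40 DNA replication and S phase genes (both in CPM), 1 point per library, for polyA (left) and rRNA-depleted libraries (right). In rRNA-depleted libraries the sums rise together, from sg5 replicate 1 at 16246 CPM to WT replicate 1 at 38948 CPM of histone RNA, and in polyA libraries the sg6 points lie above the others.

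Genes that make or process histone mRNA were called by edgeR in neither clone. Of 25 machinery genes, all tested in both kinds, 0 passed in sg5 or sg6 and the medians lay between −0.16 and 0.04. An unadjusted p below 0.05 was reached by 9 in each clone in polyA libraries and by 9 in sg5 and 6 in sg6 in rRNA-depleted libraries. Without the share of all genes at that p, nothing is read from these counts. DESeq2 called 1, *Ccne1*, in sg5 polyA libraries. *Cdc6* and *Ccne1* were named after their values were seen. *Slbp*, whose protein binds the stem-loop, read 76.5, 68.2 and 46.6 CPM in WT, 55.6, 63.1 and 52.7 CPM in sg5 and 44.2, 40.4 and 32.0 CPM in sg6 polyA libraries. The sg6 libraries were all below WT, at a change under the fold limit (log2 fold change −0.71 ± 0.18 (SE), adjusted p = 0.0174). In rRNA-depleted libraries its log2 fold change was −0.61 in sg5 and −0.60 in sg6 (adjusted p = 0.0668 and 0.0902). *Npat*, the histone gene coactivator, stood between −0.24 and 0.04 over both clones and kinds. *Casp8ap2*, a component of histone locus bodies, stood between −0.61 and −0.15. None of these passed the fold limit.

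Among 11 genes listed as replication-independent histones, *Macroh2a2* was called lower in both clones in both kinds. It encodes a macroH2A variant and read 47.2, 48.1 and 61.0 CPM in WT, 21, 16.4 and 18.6 CPM in sg5 and 24.2, 21.3 and 25.9 CPM in sg6 polyA libraries, without overlap. The log2 fold changes were −1.48 and −1.13 in polyA and −1.58 and −1.37 in rRNA-depleted libraries, for sg5 and sg6. The linker histone gene *H1f0* was the second call, lower in sg6 polyA libraries (log2 fold change −1.07 ± 0.19 (SE), adjusted p = 0.00258); it was named after its values were seen. The list's medians were −0.21 and −0.49 in polyA and −0.20 and −0.29 in rRNA-depleted libraries.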

How the data were processed

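RNA of C3H/10T1/2 cells was measured in 9 polyA and 9 rRNA-depleted libraries, 3 per line and kind. For the polyA libraries the authors deposited expected counts per gene from Salmon (version 0.8.2 in the submitters' processing notes) and tximport on mm10 known genes, made at the MSKCC facility. These are whole numbers, and rounding changed none. For the rRNA-depleted libraries, made at Novogene by the study's methods and at MSKCC by the labels, the deposited counts per gene and transposable element locus came from STAR and TElocal, which share out reads with several alignments. The strand setting is not given in the sources used here. Neither table was normalized, and all columns were used (0 left out). The tables list 24100 gene rows, of which 24045 matched RefSeq GRCm38.p6 by Entrez identifier.

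The 64 genes and the other lists were chosen with earlier results of these data known. Lines were compared in R 4.3.3 with edgeR 4.0.16, using filterByExpr (minimum count 10), TMM scaling and the quasi-likelihood test on all 9 libraries of a kind with 3 groups, without a replicate block, over 15480 genes (polyA) or 56086 genes and element loci (rRNA-depleted). SE is the log2 fold change divided by the square root of F. Across kinds, CPM over gene counts plus 0.5 were compared as values. A count of 0 is below 3 counts per library, which covers counting error only. Sequence shared between genes was measured in 31-base words of GENCODE M21 transcripts. Replicates were checked not to be copies (chi-square per gene at least 23.9). The fit was tested on simulated data. Figures were drawn with matplotlib.

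Genes named are those called in both clones in a kind, the 2 highest of each class in rRNA-depleted and the 5 highest in polyA libraries, the 3 highest and 3 lowest ratios, list genes called in both clones, *Slbp*, *Npat*, *Casp8ap2* and *Atrx*; others are marked. Alternatives were DESeq2 1.42.0, median-of-ratios scaling, no filter, genes alone, no fold limit, the 2 groups alone, a replicate block, each library left out and other pseudocounts or totals for the ratio. Centring by chromosome was chosen after seeing the data.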

Additional observations from a re-analysis of the deposited data

Results flagged for a closer look

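In 4 results the clones differed from each other in a direct test of sg5 against sg6 (edgeR's quasi-likelihood test, past the fold limit). In rRNA-depleted libraries *H1f1* had a log2 fold change of −3.83 between sg5 and sg6. In polyA libraries it was −2.24 for *H2ac4*, −1.24 for *H4c17* and −1.04 for *H4c9*. The polyA differences of *H2ac4* and *H4c9* were called in 3 and 2 of the 9 fits that each left out 1 library, that of *H4c17* in 7 and that of *H1f1* in 9. *H2ac4* passed the filter on low counts only through sg6, where it was high. Each clone is a single clone of a different sgRNA, so sgRNA and clone cannot be told apart.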

How the results depend on the processing

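Of 228 recomputed counts and ratios, 194 stayed within 1.5 times the count or 1 SD of the ratio. In polyA libraries, the count of genes higher in sg5 was 3 with only the 2 groups compared, and the 1 gene lower in sg5 (*H1f6*) was lost (0) under DESeq2, without the filter and with 2 groups. The count lower in sg5 than in sg6 was 8 under DESeq2, 6 with the replicate block, 5 with 2 groups, 5 without a fold limit and 1 with centring by chromosome. Leaving out 1 library gave 1 to 5 genes higher in sg5, 0 to 1 lower in sg5, 10 to 18 higher in sg6 and 0 to 6 lower in sg5 than in sg6. In rRNA-depleted libraries it gave 0 to 1 lower in sg6, the 1 without sg6 replicate 2, and 1 to 1 for the *H1f1* calls. The other counts stayed at 0. The median log2 ratio of the kinds in WT, sg5 and sg6 was 10.47, 9.86 and 9.47 with 0.1 added and 7.57, 6.89 and 6.84 with 2 added, and with totals over all features it was 8.91 in WT. Leaving out 1 library gave 8.98 to 9.20, 8.23 to 8.78 and 8.25 to 8.64. DESeq2 turned 4 small changes of named genes, none called: *H1f2* in sg5 (0.00041) and *H2bc4* (0.030) and *H2bc21* (0.026) in sg6 in rRNA-depleted libraries, and *H2ac4* in sg5 in polyA libraries (−0.0587). *H1f2* in sg6 and *H2ac10* in sg5 fell under the fold limit in polyA libraries (0.99 each under DESeq2). Median-of-ratios scaling left the direction of every member median as it was, with all genes at a median of 0.13 in rRNA-depleted sg5.

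Libraries share replicate numbers across lines, but no label ties a number to a culture or batch. Same-number pairs correlated at 0.03 to 0.43 (mean 0.26) in polyA and 0.06 to 0.27 (mean 0.12) in rRNA-depleted libraries, against means of −0.13 and −0.06 for other pairs, and 16 of 18 and 12 of 18 comparisons were highest with the own number, a hint of pairing from the data and not from the design. Since not every same-number correlation was above 0.1 in either kind, the numbers were not taken as pairs. With the replicate block 16 genes were higher in sg6 and 4 in sg5. The cause of these shifts was not tested. In polyA libraries 26 of the 64 genes were too low to test.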
